A study of Mus musculus with 20 samples.

Results

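Oxtr, the gene of the oxytocin receptor, was followed through the estrous cycle in the inguinal subcutaneous fat of female mice. It is 1 gene of the 35841 in the deposited table, and it was chosen on its measured values: its level was known to differ between stages, so the levels by stage are given as a description with no test. The 20 mice were 8-week-old C57BL/6 females, with 5 mice and 5 libraries each at proestrus, estrus, metestrus and diestrus, and the sources describe no treatment. Each library came from a separate animal, and the study staged the mice by vaginal smear. The values are FPKM: the fragments of a gene divided by its transcript length and by the mapped fragments of the library. This scales for length and for the size of the library, and not for differences in RNA composition between libraries. Of all genes, 13987 reached 1 FPKM in at least 5 libraries, and these were tested on log2(FPKM + 1).

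Oxytocin is a peptide hormone of the hypothalamus, released from the posterior pituitary. Its receptor sits in the cell membrane and signals mainly through the G protein Gq, which activates phospholipase C, raises calcium and leads to contraction in smooth muscle and myoepithelial cells. In the mammary gland it stands on the myoepithelial cells that eject milk, in the uterus on the muscle of labour, and in mice it has also been described on adipocytes, where oxytocin favours lipolysis. In the uterus its expression is known to be raised by estrogen and held down by progesterone. The inguinal pad of a female mouse holds adipocytes, vessels, the mammary ducts and a lymph node, all of which enter a bulk library.

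Oxtr lies on the minus strand of chromosome 6 in GRCm38, from 112473683 to 112489943 in GENCODE M21. Its coding transcript Oxtr-201 has 2 exons. Exon 1 (1065 bases) holds a 5′ UTR of 146 bases and 919 bases of coding sequence, and exon 2 (3639 bases) holds the other 245 coding bases and the 3′ UTR. No annotated gene overlaps it. RefSeq's promoter window for GRCm38.p6 covers 300 bases, chr6:112489776-112490075, and is shown because it was searched for the elements that steroid hormone receptors are known to bind. The first stretch lies upstream of the start in both annotations. The other 3 are 30-base windows around the motif matches, set in capitals, which lie in the annotated first exon of GENCODE, and the last one runs over the start codon.

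upstream, chr6:112489944-112490075, minus strand: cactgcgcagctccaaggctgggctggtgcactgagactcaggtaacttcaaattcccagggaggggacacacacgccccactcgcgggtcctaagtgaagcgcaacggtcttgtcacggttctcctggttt

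estrogen element arm 1, chr6:112489904-112489933, minus strand: gaggacaggcaGGTCAgtgccagagtgctc

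GC box and E-box, chr6:112489856-112489885, minus strand: agcgccgggccCCGCCCCACGTGccacact

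estrogen element arm 2, chr6:112489783-112489812, minus strand: cggtcgcggttGGTCAtggagggcacgccc

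The letters GGTCA, a single arm of the palindromic estrogen response element, occurred 2 times in the window, and 40.5% of 32851 mouse promoter windows of this length hold at least 1. The whole palindromic element, with both arms 3 bases apart, was not in the window and is in 0.0700% of all windows. The letters AGAACA, a single arm of the element shared by the glucocorticoid and progesterone receptors, was not in it either and is in 18.97% of windows, and the letters TTCNNNGAA of the STAT site were also not found (8.30% of windows). The E-box CACGTG (7.15% of windows) and the GC box GGGCGG (35.7%), here as its complement and directly beside the E-box, occurred 1 time each. Both strands were searched. The matches describe the sequence only.

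The state of some libraries bears on the values. A score over 8 skeletal muscle genes, the mean of their log2(FPKM + 1), was 8.93 in metestrus-3 and between 0.797 and 2.99 in the other metestrus mice. By the study's supplement proestrus-2 was made from another portion of the fat pad after RNA of low quality. A lymphocyte score split the mice at its widest gap into 12 with high and 8 with low values, and Oxtr ranged from 8.36 to 90.0 FPKM (median 37.1) in the 12 and from 10.01 to 63.4 FPKM (median 27.4) in the 8. This split pools the stages, so its medians do not give the relation within stages. The adipocyte genes, 19 of 19 listed, were at 16.5 FPKM or more in every library. The library of estrus-1 stood apart in Oxtr itself, as follows.

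Oxtr was highest at proestrus and lowest at metestrus. The 5 proestrus mice had 41.1, 63.4, 90.0, 50.3 and 57.4 FPKM. The 5 estrus mice had 46.7, 14.2, 10.4, 18.4 and 10.1 FPKM, so that 4 lay close together and estrus-1 lay far above them. The 5 metestrus mice had 8.36, 14.2, 10.01, 12.9 and 8.79 FPKM. The 5 diestrus mice had 48.0, 48.7, 33.1, 41.7 and 36.4 FPKM, all within a range of 1.47 times. In bulk tissue, fewer cells that express Oxtr and less Oxtr RNA in each of them cannot be told apart.

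**Figure D1:**
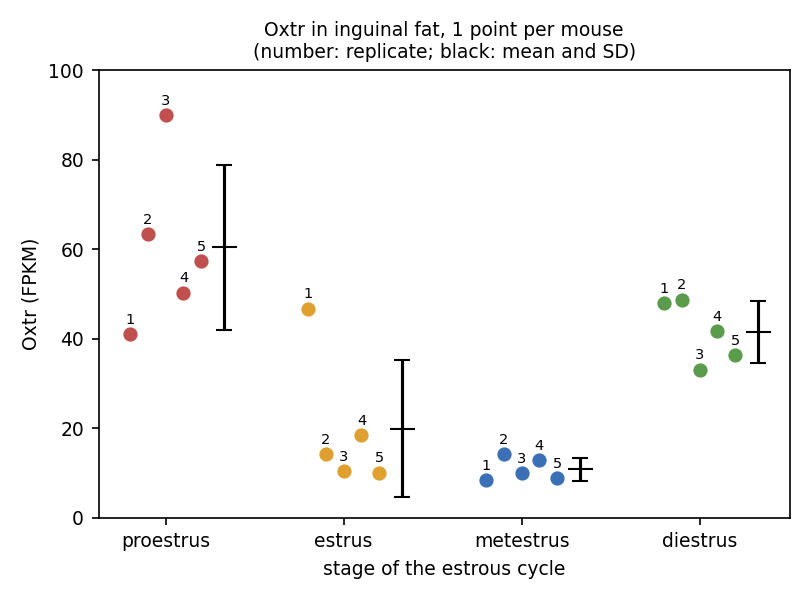
Oxtr in FPKM (vertical axis) for each of 20 mice by stage of the cycle; numbers are replicate numbers, and black bars are the mean and SD of 5 mice. All metestrus mice lie at 14.2 FPKM or less and all proestrus and diestrus mice at 33.1 FPKM or more, with estrus-1 at 46.7 FPKM away from the other estrus mice.

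The means were 60.4 ± 18.5 FPKM at proestrus, 20.0 ± 15.3 FPKM at estrus, 10.9 ± 2.60 FPKM at metestrus and 41.6 ± 6.92 FPKM at diestrus (SD, n = 5 each). Without estrus-1 the estrus mean was 13.3 ± 3.93 FPKM (SD, n = 4). The ratio of means was 3.83 for diestrus over metestrus, 2.08 for diestrus over estrus and 1.84 for estrus over metestrus. Diestrus and metestrus mice did not overlap, and neither did metestrus and proestrus mice. Such separation held for 3.25% of all genes tested between diestrus and metestrus and for 2.51% between metestrus and proestrus.

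Neighbours in the order of levels were not all apart. Diestrus and proestrus overlapped through proestrus-1 (41.1 FPKM), which had less Oxtr than 3 of the 5 diestrus mice. Estrus and metestrus overlapped between 10.1 and 14.2 FPKM. Estrus overlapped with diestrus and proestrus only through estrus-1. On the log2(FPKM + 1) scale, with a standard error of 0.31 for each, the difference was 1.85 for diestrus minus metestrus, 1.24 for diestrus minus estrus, -0.50 for diestrus minus proestrus, -2.35 for metestrus minus proestrus, -0.61 for metestrus minus estrus and -1.74 for estrus minus proestrus. Without estrus-1 the 3 differences with estrus were 1.601 for diestrus minus estrus, -0.25 for metestrus minus estrus and -2.10 for estrus minus proestrus, each with a standard error of 0.22.

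Oxtr was well within the expressed genes at every stage. It stood above 93.4% to 96.8% of the genes tested in the proestrus libraries, above 91.5% to 94.5% in diestrus and above 67.9% to 78.8% in metestrus. In estrus-1 it stood above 94.3% of them, and in the other estrus libraries above 70.7% to 85.2%.

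The other members of the oxytocin and vasopressin family were near or at the floor, apart from the peptidase. Oxt, which encodes oxytocin, was listed at 0 in 17 of 20 libraries and reached 0.164 FPKM at most. Avpr1a, the vasopressin receptor that also signals through Gq, was between 0.254 and 1.36 FPKM, with its highest value in estrus-1, the mouse with the most Oxtr in its stage. Avpr2, the vasopressin receptor of the kidney, stayed between 0 and 0.835 FPKM. None of these 3 reached the level for testing, and no gene with the symbol Avp or Avpr1b was among the 35841. Lnpep, the membrane peptidase that cleaves oxytocin, averaged 16.1 ± 4.42, 20.8 ± 4.23, 16.9 ± 3.82 and 18.0 ± 4.24 FPKM from proestrus to diestrus (SD, n = 5 each), and its limma F test over the 4 stages gave an adjusted p of 0.809.

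The genes beside Oxtr on chromosome 6 had low values. Cav3, a caveolin of muscle, lies 810 bases beyond the 3′ end of Oxtr on the opposite strand (112459505 to 112472872). It had 3.88 FPKM in metestrus-3, the library with the high muscle score, and 0.436 FPKM or less in every other library. Oxtr in metestrus-3 was 10.01 FPKM, in the middle of its stage. On the other side, Rad18, a ubiquitin ligase of DNA repair, lies 129906 bases away and averaged 2.02 ± 0.583, 1.67 ± 0.288, 1.36 ± 0.242 and 1.68 ± 0.182 FPKM from proestrus to diestrus (SD, n = 5 each). The nearest annotated model on that side is the small nuclear RNA Gm27944, at 23503 bases.

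The study measured estradiol and progesterone in the serum of the same mice, and these were used here only to rank the mice and as a covariate. The 5 mice with the most progesterone were the 5 metestrus mice, with 8.36 to 14.2 FPKM of Oxtr, and the 5 with the least were the 5 proestrus mice, with 41.1 to 90.0 FPKM. In the 10 mice between them the progesterone ranks of estrus and diestrus mice were mixed, while Oxtr went with the stage in all but estrus-1: estrus-5 (rank 7) had 10.1 FPKM, diestrus-3 (rank 8) 33.1 FPKM, estrus-1 (rank 9) 46.7 FPKM, diestrus-4 (rank 10) 41.7 FPKM and estrus-2 (rank 11) 14.2 FPKM. The order by estradiol was a different one. The 3 mice with the most estradiol were metestrus mice with 8.79, 10.01 and 14.2 FPKM of Oxtr, and the next was proestrus-3, which had the most Oxtr of all mice.

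Because stage and hormone differ together, the relation was tested within stages, where the differences between stages do not enter. Earlier results of these data were known when this test was chosen. With the stage means in the model, the slope of Oxtr was 0.00066 on the log2 scale per doubling of progesterone (SE 0.24, 95% interval -0.50 to 0.50, limma, adjusted p = 0.9999). The interval corresponds to 0.706-fold to 1.42-fold per doubling. For estradiol the slope was 0.25 (SE 0.22, 95% interval -0.22 to 0.71, limma, adjusted p = 0.992), or 0.859-fold to 1.64-fold per doubling. Over all genes tested, 0 passed for progesterone (0% of them) and 0 for estradiol (0%) by limma, and 119 and 272 had an unadjusted p under 0.05. The slopes within stages were therefore not distinguishable from 0 in either direction at this spread. Estradiol differed little among the proestrus mice, so the stage with the most Oxtr added little to the estradiol slope. With array weights, which give less influence to libraries that deviate, the progesterone slope was -0.13 and the estradiol slope 0.00034, and without estrus-3 the estradiol slope was -0.0075.

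Genes with a pattern like that of Oxtr were ranked by Pearson's r of log2(FPKM + 1) over the 20 libraries. Among the genes tested r had a median of -0.06, and 90% of them lay between -0.46 and 0.44. The libraries share their stage, so that r follows any stage difference, and it is given as a description. The 8 highest, leaving out gene models without a name, were Ptpn5 (0.91), Tmed3 (0.90), Fam160a1 (0.85), Lrrc27 (0.84), Slc5a5 (0.83), Wisp2 (0.82), Psmd3 (0.82) and Sprr1a (0.82). Estrus-1 was the highest of the 5 estrus libraries in 6 of these 8 genes. As estrus-1 also had the most Oxtr of its stage, choosing genes by r favours such a count.

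Ptpn5, a tyrosine phosphatase on chromosome 7 (47077795 to 47133684), averaged 2.11 ± 0.60, 0.27 ± 0.28, 0.12 ± 0.09 and 1.04 ± 0.19 FPKM from proestrus to diestrus (SD, n = 5 each), and had 0.772 FPKM in estrus-1. Tmed3, a cargo receptor of the early secretory pathway, averaged 62.1 ± 5.02, 32.3 ± 8.36, 28.2 ± 5.18 and 43.3 ± 2.62 FPKM. It shares the order of the stages with Oxtr at about the same level but over a narrower range. Slc5a5, the sodium iodide symporter, which the mammary gland uses to bring iodide into milk, averaged 19.7 ± 10.2, 5.87 ± 2.44, 4.45 ± 1.504 and 9.12 ± 1.57 FPKM. Sprr1a, a protein of the cornified envelope, averaged 2.78 ± 1.03, 0.68 ± 0.36, 0.08 ± 0.09 and 0.87 ± 0.34 FPKM.

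Of the 8 lowest, 7 were Mc5r (-0.83), Hpd (-0.83), Phyhd1 (-0.79), Hpcal1 (-0.78), Kiz (-0.76), H2-M9 (-0.76) and Cited1 (-0.75). Estrus-1 was the lowest of the estrus libraries in 7 of the 8, which the choice by r again favours. Mc5r, a melanocortin receptor found in adipocytes and exocrine glands, averaged 0.88 ± 0.31, 1.301 ± 0.58, 3.18 ± 0.44 and 1.16 ± 0.20 FPKM from proestrus to diestrus (SD, n = 5 each). Cited1, a transcriptional coregulator, averaged 4.07 ± 1.07, 7.41 ± 1.51, 14.7 ± 5.78 and 4.14 ± 1.38 FPKM. Both had their highest mean at metestrus, where Oxtr was lowest.

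**Figure D2:**
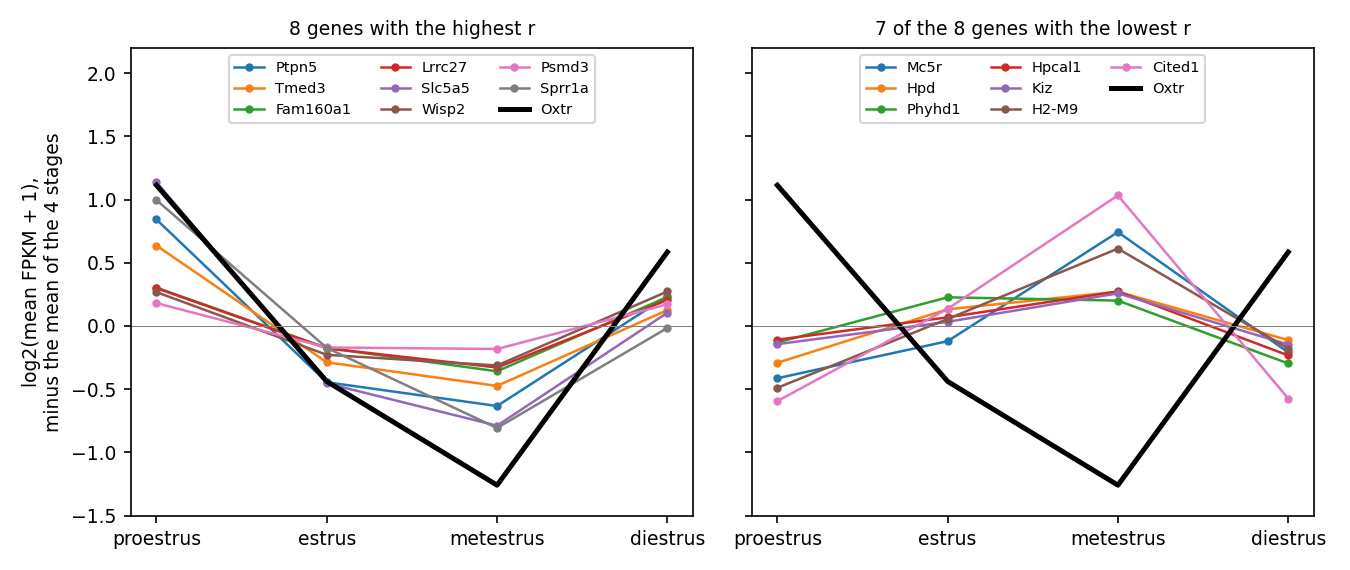
Stage means as log2(mean FPKM + 1) minus the mean of the 4 stages (vertical axis) for the 8 genes with the highest r with Oxtr over 20 libraries (left) and 7 of the 8 with the lowest (right); the black line is Oxtr. The genes on the left are high at proestrus and low at metestrus like Oxtr, and those on the right are lowest at proestrus or diestrus. Each on the left spans a smaller range than Oxtr on this scale. The added 1 narrows the range of low genes: in FPKM, Ptpn5 (2.11 to 0.12) and Sprr1a (2.78 to 0.08) fell by more fold than Oxtr (60.4 to 10.9) from proestrus to metestrus.

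With the stage means taken out, the likeness was weaker without estrus-1. The 6 highest were Rhbdl3 (0.84), Tuba1a (0.83), Fstl3 (0.83), Nkd1 (0.81), Nek6 (0.81) and Zfand2a (0.81), and the 6 lowest were St3gal6 (-0.85), Sfxn1 (-0.81), Abhd6 (-0.81), Acsm3 (-0.81), Aup1 (-0.80) and Ptcd2 (-0.78). Estrus-1 was the highest estrus library in 6 of the 6 and the lowest in 6 of the 6. Its Oxtr lay 1.42 above the stage mean, the widest deviation of any mouse. Genes picked at the ends of r are therefore favoured to be extreme in it, and a weaker r without it follows largely from the choice. Tuba1a, a tubulin, had 333.2 FPKM in estrus-1 against a mean of 118.1 FPKM over the 5 estrus mice. Without estrus-1 the values were between 0.49 and 0.68 for the 6 highest and between -0.70 and -0.43 for the 6 lowest, and for Ptpn5 the stage-centred r was 0.08 without that mouse and 0.53 with it.

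Few genes differed between stages at the threshold. By limma, with adjustment over all 13987 genes tested, 173 genes differed between diestrus and metestrus (1.24%), 123 between metestrus and proestrus (0.879%), 31 between metestrus and estrus (0.222%), 20 between estrus and proestrus (0.143%), 2 between diestrus and proestrus (0.0143%) and 0 between diestrus and estrus (0%), where 850 genes had an unadjusted p under 0.05. The F test over the 4 stages called 103 genes (0.736%). Gene lists around Oxtr were read against these shares. At such shares 0 calls is the usual outcome for a short list and is no result about its genes. The share of all genes at an unadjusted p under 0.05 in the F test is not reported here.

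Downstream of the receptor no gene passed the test, which is usual for a list of this length at these shares. Of 23 genes of Gq signalling 21 were tested. By limma 0 were called in any pair of stages, where 1.24% of all genes or fewer passed, with 1 at an unadjusted p under 0.05 in the F test. Their median difference was 0.00 for diestrus minus metestrus on the log2 scale, as for all genes. Gnaq, the Gq alpha subunit, averaged 10.9 ± 3.08, 12.8 ± 3.41, 11.4 ± 1.10 and 12.8 ± 1.59 FPKM from proestrus to diestrus (SD, n = 5 each). Plcb4, a phospholipase C, averaged 3.002 ± 1.90, 3.99 ± 0.57, 4.998 ± 0.88 and 3.798 ± 0.92 FPKM.

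Among 10 receptor kinases, arrestins and RGS proteins, which end the signal of such receptors, 1 was called. The call was in diestrus against metestrus, where 1.24% of all genes passed. Rgs16, which speeds the shut-off of Gi and Gq, rose to 2.17 ± 0.91 FPKM in diestrus mice, against 0.83 ± 0.19 FPKM in metestrus mice (SD, n = 5 each), by 0.75 ± 0.17 (SE) on the log2 scale (limma, adjusted p = 0.0452). That call was lost in 13 of the 20 fits that left out 1 library each, with adjusted p between 0.0514 and 0.142, and held only without proestrus-1, proestrus-2, proestrus-5, estrus-1, estrus-2, diestrus-2 or diestrus-5. Rgs2, which acts on Gq, averaged 16.5 ± 6.29 FPKM in diestrus mice and 31.9 ± 8.56 FPKM in metestrus mice (limma, adjusted p = 0.239). Its r with Oxtr was -0.59 over the libraries and -0.66 within stages, and -0.37 within stages without estrus-1.

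Of the steroid hormone receptors 7 of 10 were tested. By limma 0 were called in any pair, where 1.24% of all genes or fewer passed, with 2 at an unadjusted p under 0.05 in the F test. Pgr, the progesterone receptor and itself a known target of estrogen, averaged 10.8 ± 5.14, 4.55 ± 1.77, 5.45 ± 1.53 and 7.29 ± 1.62 FPKM from proestrus to diestrus (SD, n = 5 each; limma F test, adjusted p = 0.153), and its r with Oxtr was 0.70. Esr1, estrogen receptor alpha, averaged 5.59 ± 2.53, 7.99 ± 0.75, 6.76 ± 0.71 and 6.39 ± 1.83 FPKM, with an r of -0.47.

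Of the lists of hormone-responsive genes, the estradiol list lay on the positive side in its correlation with Oxtr, and the glucocorticoid and progesterone lists on the negative side. Of 8 tested estradiol-responsive genes, r over the libraries was above 0 in 8, with a median of 0.32 against -0.06 over all genes. The stage-centred r was above 0 in 6 of the 8, with a median of 0.21 against -0.07 over all genes. By limma 0 of them were called in any pair, where 1.24% of all genes or fewer passed, with 4 at an unadjusted p under 0.05 in the F test. Areg, an epidermal growth factor receptor ligand of the mammary ducts, averaged 89.5 ± 30.2, 40.1 ± 6.75, 48.96 ± 27.5 and 54.0 ± 9.10 FPKM from proestrus to diestrus (SD, n = 5 each), with an r of 0.61.

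Of 15 glucocorticoid-responsive genes, r was below 0 in 15, with a median of -0.57. The list was chosen with earlier results of these data known, so its counts are a description and no independent support. In this list 10 genes fell in diestrus against metestrus and 11 rose in metestrus against proestrus by limma, where 1.24% and 0.879% of all genes passed, with median differences of -1.08 and 1.32 on the log2 scale. Fkbp5, a chaperone of steroid receptors that is also on the progesterone list, fell to 4.22 ± 2.54 FPKM in diestrus mice, against 27.5 ± 10.05 FPKM in metestrus mice (SD, n = 5 each; log2 difference -2.49 ± 0.33 SE, limma, adjusted p = 0.00111). Tsc22d3, the glucocorticoid-induced leucine zipper, fell to 22.9 ± 6.13 FPKM in diestrus mice, against 71.0 ± 7.85 FPKM in metestrus mice (log2 difference -1.62 ± 0.30 SE, limma, adjusted p = 0.0120). Both calls held in all 20 fits that left out 1 library. The count of 10 was 6 without metestrus-4, and the count of 11 was 4 without any 1 of proestrus-3, proestrus-4, metestrus-4 and metestrus-5 and 7 without any 1 of proestrus-5, metestrus-1 and metestrus-3. Within stages the signs were mixed: the stage-centred r was above 0 in 7 of 15 genes, with a median of -0.02, against -0.07 over all genes. The paper describes serum measurements of estradiol and progesterone only, so corticosterone was not analysed here.

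In the progesterone list, 7 of 8 tested, r over the libraries was above 0 in 1, with a median of -0.48. The stage-centred r was above 0 in 4, with a median of 0.10. In the F test 5 were at an unadjusted p under 0.05. By limma 2 rose in metestrus against proestrus and 1 against estrus, where 0.879% and 0.222% of all genes passed. The genes that rose are all on the glucocorticoid list too, so these rises are not separate from those given above. Fkbp5 and Wnt4, a signal of the mammary ducts, were the genes that fell in diestrus against metestrus, where 1.24% of all genes passed. Wnt4 had 3.63 ± 0.96 FPKM in diestrus mice and 7.09 ± 2.07 FPKM in metestrus mice (SD, n = 5 each; log2 difference -0.79 ± 0.18 SE, limma, adjusted p = 0.0438), and the call was lost in 13 of the 20 fits that left out 1 library, with adjusted p between 0.0503 and 0.141, and held only without proestrus-1, proestrus-2, proestrus-5, estrus-1, estrus-3, metestrus-3 or diestrus-4.

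**Figure D3:**
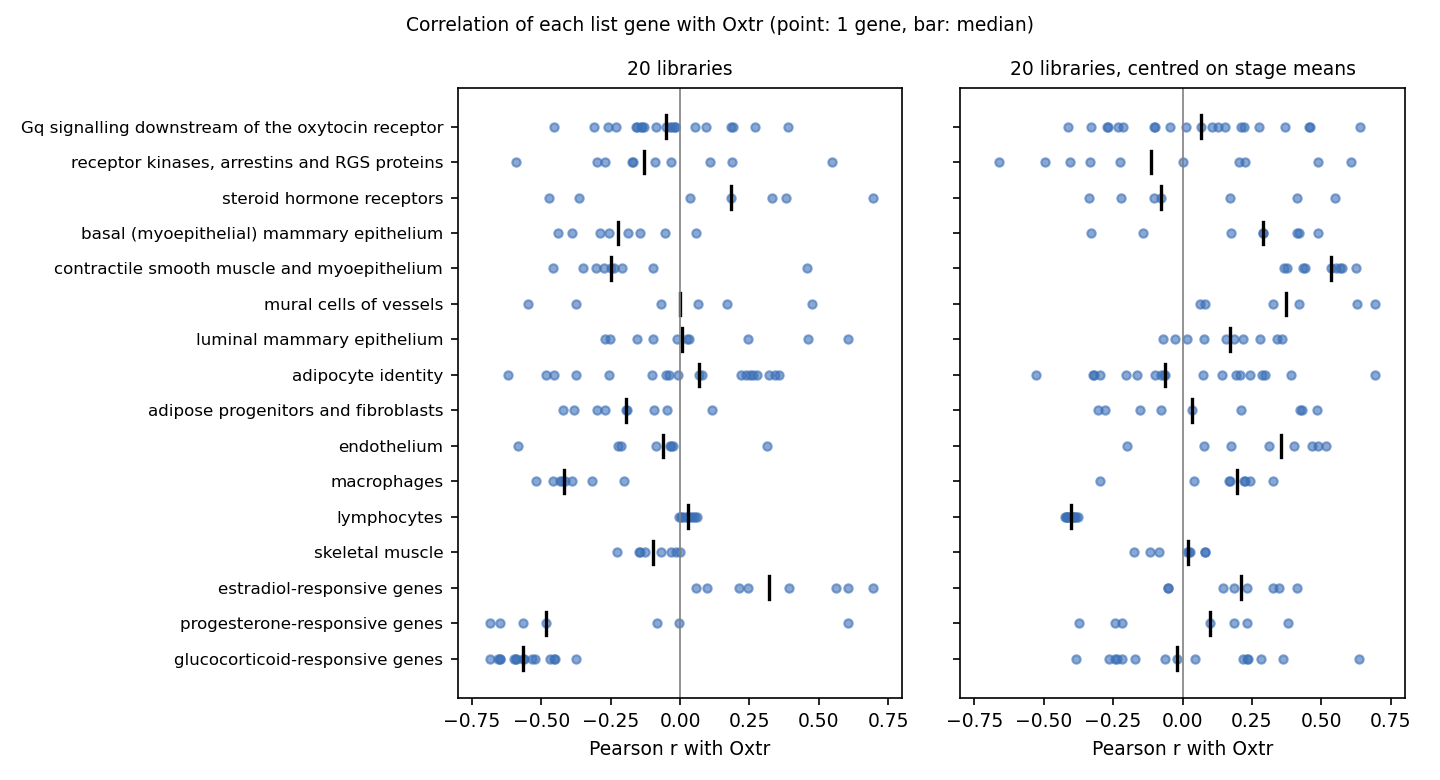
Pearson r with Oxtr (horizontal axis) for each tested gene of 16 lists, over 20 libraries (left) and after centring on stage means (right); points are genes and black bars are medians. The glucocorticoid-responsive genes all lie below 0 on the left and around 0 on the right, and the 9 contractile genes lie above 0 on the right.

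Markers of basal epithelium and of contractile cells gave no call between stages. The contractile list covers smooth muscle and myoepithelium together, so it does not tell these cells apart. Of the basal (myoepithelial) genes 8 of 9 were tested, and of the contractile genes 9 of 9. In both lists 0 were called in any pair by limma, where 1.24% of all genes or fewer passed. In the F test 1 and 3 were at an unadjusted p under 0.05. Krt14, a keratin of basal cells, averaged 13.7 ± 7.30, 19.9 ± 5.22, 27.1 ± 10.2 and 16.2 ± 1.44 FPKM from proestrus to diestrus (SD, n = 5 each), so its mean was highest where Oxtr was lowest. Acta2, smooth muscle actin, averaged 51.9 ± 25.3, 71.5 ± 23.7, 76.0 ± 14.6 and 57.3 ± 5.78 FPKM.

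Set against the basal score of the same library, Oxtr kept its order of stages: log2 of Oxtr minus the score was 3.93 ± 0.40, 1.99 ± 0.91, 1.195 ± 0.40 and 3.36 ± 0.40 from proestrus to diestrus (SD, n = 5 each), with 2.86 to 3.82 in diestrus mice and 0.726 to 1.80 in metestrus mice. Against the adipocyte score the same differences were -2.33 ± 0.54, -4.10 ± 0.78, -4.67 ± 0.53 and -2.79 ± 0.40. The stage means of the basal score lay between 1.96 and 2.35 and those of the adipocyte score between 8.19 and 8.25. Oxtr differed by far more, so taking off a score could hardly change its order. Whether cell make-up set the order was not tested. With the basal score as a covariate the difference of Oxtr for diestrus minus metestrus was 1.93. It was 1.86 with the adipocyte score, 1.91 with the lymphocyte score and 1.85 with the muscle score. The contractile score was not used as a covariate.

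Among 19 adipocyte genes 2 fell in diestrus against metestrus, where 1.24% of all genes passed. Cidec, a lipid droplet protein, fell to 466.2 ± 171.4 FPKM in diestrus mice, against 916.3 ± 224.9 FPKM in metestrus mice (SD, n = 5 each; log2 difference -1.02 ± 0.22 SE, limma, adjusted p = 0.0282). Pck1, the enzyme of glyceroneogenesis, fell to 295.8 ± 188.8 FPKM in diestrus mice, against 965.9 ± 299.8 FPKM in metestrus mice (log2 difference -1.94 ± 0.43 SE, limma, adjusted p = 0.0306). Cidec was no longer called without any 1 of metestrus-1, metestrus-4, metestrus-5, diestrus-1, diestrus-2 and diestrus-4 (adjusted p between 0.0569 and 0.108), and Pck1 without any 1 of metestrus-1, metestrus-4, metestrus-5, diestrus-1 and diestrus-4 (0.0674 to 0.108). With no filter on low genes Cidec, Pck1, Rgs16 and Wnt4 were not called either (limma, adjusted p = 0.0886, 0.0935, 0.109 and 0.108), nor in a fit of the 10 diestrus and metestrus libraries alone (0.119, 0.107, 0.116 and 0.107). Lep, leptin, averaged 85.2 ± 42.9, 196.3 ± 231.8, 60.8 ± 29.4 and 114.9 ± 58.0 FPKM from proestrus to diestrus. Its value in estrus-1 was 607.9 FPKM, against 71.5 to 140.5 FPKM in the other estrus mice, so the mouse that stood apart in Oxtr also stood apart in Lep.

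In the remaining cell type lists 0 genes were called in any pair by limma, where 1.24% of all genes or fewer passed. Tested were 6 mural, 10 luminal, 9 progenitor, 8 endothelial, 8 macrophage, 10 lymphocyte and 8 muscle genes, with 2, 4, 0, 1, 4, 0 and 0 at an unadjusted p under 0.05 in the F test. In the lymphocyte list the stage-centred r with Oxtr was below 0 in 10 of 10, with a median of -0.40. The lymphocyte score was not among the scores tested below, so this relation has no p.

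Whether mice with more Oxtr than their stage mean also had more of a cell type was tested with 9 scores, each centred on its stage means, with 100000 permutations of the mice within stages (two-sided). The contractile score went highest with Oxtr: Pearson's r was 0.62 (permutation p = 0.0138, 0.124 after adjustment over the 9 scores) and Spearman's rho 0.67 (permutation p = 0.00510, 0.0459 adjusted), with a positive relation in 4 of 4 stages. The luminal score, at an r of 0.19, was also positive in 4 of 4 stages. The contractile relation thus passed after adjustment by ranks and not by Pearson's r. Without the 2 mice farthest from the median of the score, proestrus-2 and estrus-1, r was 0.63 (permutation p = 0.0250, unadjusted). Without estrus-1 alone it was 0.48 (permutation p = 0.109, unadjusted), and without proestrus-2 and metestrus-3 it was 0.79 (permutation p = 0.0391, adjusted).

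All 9 contractile genes had a stage-centred r above 0, with a median of 0.53 against -0.07 over all genes. The members differed in how far this rested on estrus-1. Acta2, the highest, had 0.63, and 0.51 without estrus-1. Synpo2, a protein of the actin cytoskeleton named here after its values were seen, had 0.57, and 0.05 without that mouse. Mylk, the myosin light chain kinase, had 0.57 and 0.43 without it, and Tagln, transgelin, 0.55 and 0.60. Smtn, smoothelin, the lowest of the list, had 0.37 and 0.10 without it. Without the centring on stages, r of the score was -0.21, since the stages with more of the contractile genes had less Oxtr.

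The score of the mural cells that wrap vessels had an r of 0.56 (permutation p = 0.0373, 0.168 adjusted) and a rho of 0.45 (permutation p = 0.0783, 0.352 adjusted), and 0.35 without estrus-1 (permutation p = 0.268). Kcnj8, a potassium channel of pericytes, had the highest stage-centred r of its list at 0.69, and 0.53 without estrus-1. Higd1b, another pericyte gene, had the lowest at 0.06. The basal score had an r of 0.17 (permutation p = 0.357, 0.642 adjusted) and a rho of 0.22 (permutation p = 0.361, 0.650 adjusted). The adipocyte score had an r of 0.06 (permutation p = 0.808, 0.909 adjusted) and a rho of 0.0060 (permutation p = 0.982, 0.982 adjusted). Without their 2 farthest mice r was 0.72 for the mural, 0.18 for the basal and -0.04 for the adipocyte score.

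**Figure D4:**
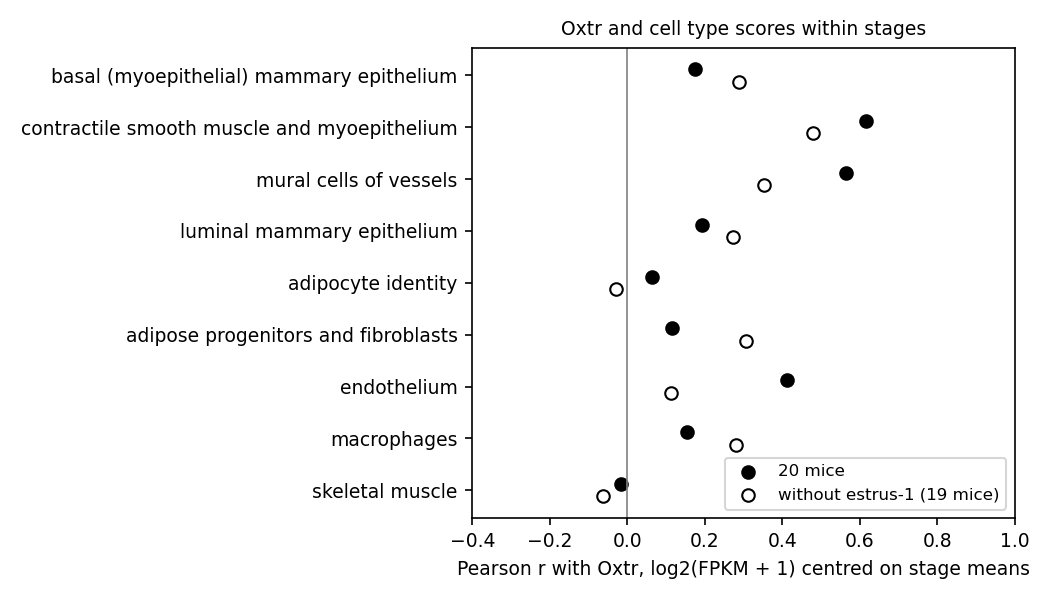
Pearson r of Oxtr with 9 cell type scores (horizontal axis), both as log2(FPKM + 1) centred on stage means; filled points are all 20 mice and open points leave out estrus-1. The contractile score is highest at 0.62 and 0.48, and the adipocyte and muscle scores lie near 0.

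**Figure D5:**
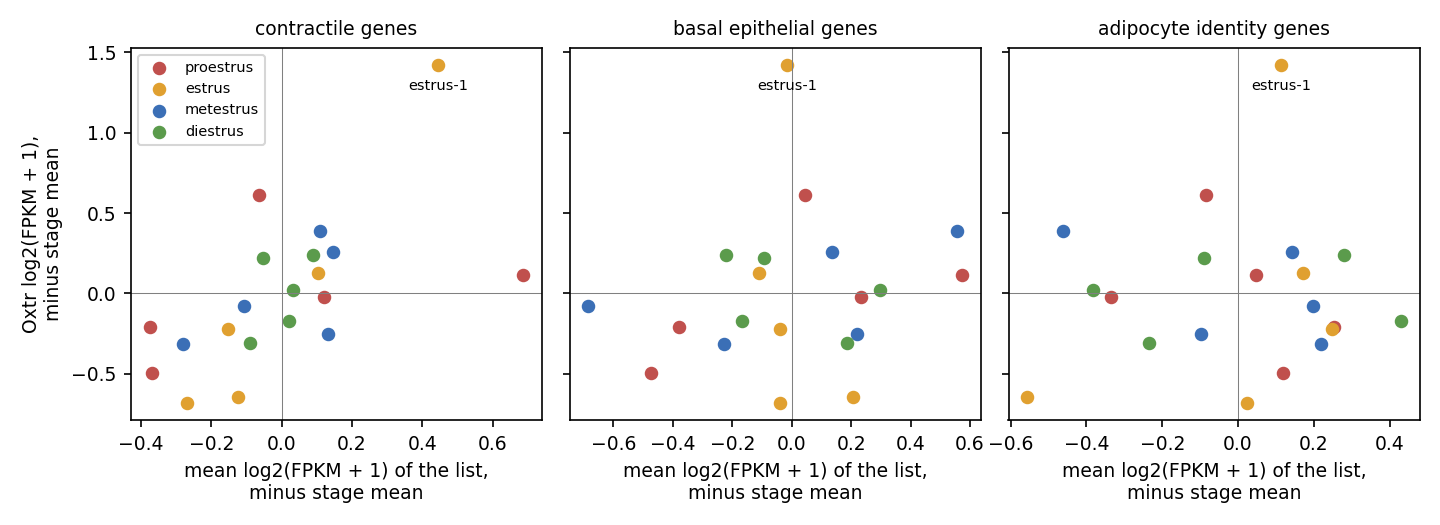
Oxtr (vertical axis) against the contractile, basal and adipocyte scores (horizontal axes), each as log2(FPKM + 1) minus the stage mean; 1 point is 1 mouse, coloured by stage. In estrus-1 Oxtr lies 1.42 above its stage mean and the contractile score 0.44 above its own, while its basal score lies at -0.02.

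The other 5 scores gave r of 0.41 for endothelium (permutation p = 0.158, 0.473 adjusted), 0.19 for luminal epithelium (0.253, 0.569 adjusted), 0.15 for macrophages (0.466, 0.698 adjusted), 0.11 for progenitors (0.662, 0.851 adjusted) and -0.02 for skeletal muscle (0.947, 0.947 adjusted). The endothelial value was 0.11 without estrus-1 and 0.19 without metestrus-3 and estrus-1. The spread of 5 mice a stage leaves all of these relations wide, and a p that misses the threshold does not show that Oxtr was unrelated to a score.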

How the data were processed

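The authors deposited 1 table of FPKM, computed from polyadenylated RNA of 20 fat pads. The paper describes Skewer for trimming, STAR for alignment to GRCm38 and HTSeq for counting. In the submitters' processing notes STAR has version 2.5.3a, FastQC 0.11.5 and StringTie, which the paper leaves out, 1.3.1c, and hg38 is listed beside GRCm38. Sums of FPKM were 373659 to 452647 per library, and read depth was not used here. Of 3054 symbols that were missing or turned into dates, 2979 were restored from the gene identifiers.

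Here FPKM were taken to log2(FPKM + 1), which understates changes of low genes, and fitted in limma 3.58.1 (R 4.3.3) with a mean per stage and a variance trend, or with log2 serum hormone added. The 6 pairs of stages, later minus earlier, were adjusted by Benjamini-Hochberg at 0.05 over the 13987 genes at 1 FPKM in at least 5 libraries. Correlations used Python 3.11.15 with numpy 2.4.6. The scripts were tested on simulated data. Oxtr, the lists and the tests were chosen with earlier results of these data known. Named genes are the oxytocin and vasopressin family, the neighbours of Oxtr, the genes most and least like it (8 and 6 at each end, leaving out gene models) and, per list, up to 4 with the smallest F test p and, for cell types, those with the highest and lowest stage-centred r. Rgs2, Gnaq and Fkbp5 are such genes, and some genes chosen by this rule are not reported here. Alternatives covered pseudocount, filter, scaling, array weights, block, covariates and omitted libraries. Leaving out proestrus-2 and metestrus-3 for the stage differences, hormone slopes and list counts, and giving score correlations and list counts without estrus-1, was chosen after seeing the data. Sequences are RefSeq's for GRCm38.p6, where Oxtr matched by symbol.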

Additional observations from a re-analysis of the deposited data

Results flagged for a closer look

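In groups of 5 mice, a value was taken up here when the highest or lowest mouse lay far from the other 4 relative to the range of the group. Of 116 groups examined 11 met this. For independent, normally distributed values chance gives about 1 in 20. FPKM need not be so distributed, and some genes were picked for likeness to Oxtr, so the 11 are not read as an excess.

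Oxtr in estrus-1 was 46.7 FPKM, against 10.1 to 18.4 FPKM in the other estrus mice. In the same library Avpr1a was 1.36 FPKM (0.329 to 0.422 in the others), Ptpn5 0.772 FPKM (0.101 to 0.196) and Lep 607.9 FPKM (71.5 to 140.5). Avpr1a in proestrus-3, the mouse with the most Oxtr of all, was 0.551 FPKM (0.254 to 0.319). Slc5a5 in proestrus-2 was 37.9 FPKM (12.9 to 16.5). In metestrus-3, Cav3 was 3.88 FPKM (0 to 0.0388), the skeletal muscle score 8.93 (0.797 to 2.99) and Lep 111.7 FPKM (38.0 to 56.3). The adipocyte score was 7.70 in estrus-3 (8.27 to 8.50), and the macrophage score 5.62 in estrus-2 (4.96 to 5.10). All of these are values of single mice, and their causes were not tested.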

How the results depend on the processing

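The Oxtr difference for diestrus minus metestrus lay between 1.83 and 1.94 on the log2 scale over 10 alternatives and between 1.78 and 1.95 when 1 library was left out. The progesterone slope turned to -0.0387 with an equal sum of FPKM, -0.13 with array weights and -0.0638 with both hormones in 1 model. It ranged from -0.12 to 0.12 without 1 library, and the estradiol slope from -0.0075 (without estrus-3) to 0.35; neither passed in any of these fits.

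The replicate numbers do not pair the mice (r over 0.1 in 10 of 30 same-numbered pairs). With a replicate block 94 genes differed between diestrus and metestrus and 1 between diestrus and proestrus, and r turned to -0.0029 for the adipocyte and 0.0529 for the muscle score. Cidec, Pck1 and Rgs16 were not called with the block (limma, adjusted p = 0.0679, 0.0634 and 0.0639). Of the glucocorticoid list 8 genes were then called in diestrus against metestrus, without Per1 and Nfkbia, and 7 in metestrus against proestrus, without Sgk1, Ddit4, Errfi1 and Klf9.

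Counts over all genes moved more. Between diestrus and metestrus, 173 genes became 70 with no filter, 113 with median-ratio size factors, 1035 with array weights, 374 with the lymphocyte score as covariate and 113 in the 10 libraries alone. Between metestrus and proestrus, 123 became 494 with array weights, 215 with the lymphocyte score and 66 in the 10 libraries alone. Between metestrus and estrus, 31 became 18 with no filter, 19 with an equal sum, 165 with array weights, 85 with the lymphocyte score and 8 in the pair alone. Between estrus and proestrus, 20 became 7 in the pair alone. Between diestrus and estrus, 0 became 8 with array weights. Between diestrus and proestrus, 2 became 0 with a pseudocount of 0.1, an equal sum or the pair alone, and 1 with no filter, a filter of 5 FPKM or median-ratio size factors. Without 1 library the counts were 43 (without metestrus-4) to 276 (without diestrus-3), 53 (without proestrus-3 or metestrus-4) to 329 (without proestrus-2), 9 (without metestrus-4) to 56 (without metestrus-2), 11 (without estrus-3) to 46 (without proestrus-2), 0 to 6 (without estrus-1) and 0 to 4 (without proestrus-1), in the same order of pairs. The cause was not tested. Of the glucocorticoid list, 8 genes were called in diestrus against metestrus with no filter and 9 without proestrus-2 and metestrus-3 (10 in the model as reported), and in metestrus against proestrus 6 and 11 (11 in the model as reported).

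The contractile score passed as Spearman's rho (0.67), without proestrus-2 and metestrus-3 (r 0.79), without proestrus-2 alone (0.79, adjusted permutation p = 0.0250) and without proestrus-3 (0.68, adjusted permutation p = 0.00153); without 1 library r was 0.48 to 0.79. The mural score passed without proestrus-2 and metestrus-3 (0.76) and without proestrus-3 (0.61), in a range of 0.35 to 0.73. With no stage means removed r turned to -0.30 for the basal, -0.21 for the contractile, -0.10 for the mural, -0.25 for the progenitor, -0.0905 for the endothelial and -0.45 for the macrophage score. The muscle score, at -0.02, turned to 0.0053 with a pseudocount of 0.1, 0.11 as rho, 0.0228 with size factors and 0.0428 without proestrus-2 and metestrus-3. Without 1 library r was -0.15 to 0.18 for the adipocyte, -0.0028 to 0.31 for the progenitor and -0.0733 to 0.13 for the muscle score.

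With 5 mice a stage and no read counts, no limit of detection was measured.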
